A study of Mus musculus with 4 samples.

Results

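The endoplasmic reticulum (ER) chaperone and unfolded protein response set comprised 10 genes, chosen by symbol from the 23284 gene symbols of the deposited tables. It held the heat shock chaperones Hspa5 and Hsp90b1, the lectin chaperones Calr and Canx, the protein disulfide isomerases Pdia3, Pdia4 and Pdia6, the transcription factors Xbp1 and Ddit3, and the degradation factor Herpud1. All 10 were measured in every library and all 10 passed the filter of a mean of at least 1 FPKM (fragments scaled to transcript length and sequencing depth), which 10496 genes passed. All 10 are protein-coding genes with a single entry in the tables, whose mm10 coordinates, counted from 1, place Hspa5 at chr2:34772090-34776529 (+), Hsp90b1 at chr10:86690841-86705444 (−), Calr at chr8:84842088-84846931 (−) and Canx at chr11:50293957-50325673 (−). The isomerases Pdia3 at chr2:121413902-121438686 (+), Pdia4 at chr6:47796141-47813512 (−) and Pdia6 at chr12:17266595-17284770 (+) and the remaining genes Xbp1 at chr11:5520967-5525872 (+), Ddit3 at chr10:127290793-127296288 (+) and Herpud1 at chr8:94386500-94395358 (+) complete the set.

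The 4 libraries came from BALB/c mice, and the labels state no age, sex, allele or genetic change. CD4 T cells from spleen, cultured in vitro with 15 ng/ml IL-2 and 10 ng/ml IL-12 to make Th1 cells, were divided on a cell sorter by CCR7, a chemokine receptor for lymph node entry, and CD137, a costimulatory receptor of activated T cells. Both populations thus had the same stated cytokines and culture length, which is 4 days in one label and 5 in another. The CCR7hiCD137lo and the CCR7loCD137hi population gave 2 libraries each, numbered 1 and 2. The labels do not tell whether equal or different numbers mark separate mice, pools or cultures, so the p-values speak only of the spread between samples, and that spread may be technical.

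Secreted and membrane proteins fold in the ER with the help of chaperones, which hold unfolded chains, and of isomerases, which form and rearrange disulfide bonds. When unfolded protein accumulates, the sensors IRE1, PERK and ATF6 start the unfolded protein response. IRE1 splices Xbp1 mRNA, PERK slows translation and favours the making of ATF4, and cleaved ATF6 enters the nucleus. The resulting factors raise transcription of chaperones and degradation genes, and under lasting stress that of Ddit3. T cells enlarge their secretory pathway once activated, when they begin to release cytokines and cytotoxic proteins.

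Some of the members' promoters hold ER stress response elements. These are shown here because the members' levels are compared below with whether they carry one. ERSE is CCAAT, any 9 bases and CCACG, where the CCAAT part is bound by NF-Y and the CCACG part by ATF6 or XBP1, and ERSE-II is ATTGG, any 1 base and CCACG. Each was searched on both strands in RefSeq windows of the GRCm38.p6 build, from 250 bases before the start site to 50 after it. ERSE matched in 5 of the 10 members, against 0.137% of 27025 gene symbols and 0.119% of all 32851 promoter windows. ERSE-II matched in Herpud1, against 0.0444% of symbols and 0.0365% of windows. The members were picked as genes of this response, so these shares are a description only. Capitals mark the fixed letters of each match; where a match lies on the other strand, its reverse complement is in capitals. Hsp90b1 alone among the members had 2 ERSE matches, on opposite strands. The lines give each gene's own strand, 5′ to 3′, and the coordinates and strand are chr2:34771920-34772089 (+) for Hspa5, chr10:86705508-86705681 (−) for Hsp90b1, chr8:84847050-84847118 (−) for Calr, chr11:50325775-50325843 (−) for Canx, chr12:17266466-17266534 (+) for Pdia6 and chr8:94386352-94386412 (+) for Herpud1.
Hspa5: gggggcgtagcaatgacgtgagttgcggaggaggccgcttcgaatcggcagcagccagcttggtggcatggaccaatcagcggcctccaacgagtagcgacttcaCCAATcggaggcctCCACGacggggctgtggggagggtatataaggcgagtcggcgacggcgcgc
Hsp90b1: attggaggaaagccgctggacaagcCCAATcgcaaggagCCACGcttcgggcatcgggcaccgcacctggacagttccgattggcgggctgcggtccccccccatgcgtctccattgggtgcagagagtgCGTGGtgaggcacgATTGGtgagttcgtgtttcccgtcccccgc
Calr: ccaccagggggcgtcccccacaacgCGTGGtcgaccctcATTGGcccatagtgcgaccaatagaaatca
Canx: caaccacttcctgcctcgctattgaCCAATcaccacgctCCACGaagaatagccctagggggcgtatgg
Pdia6: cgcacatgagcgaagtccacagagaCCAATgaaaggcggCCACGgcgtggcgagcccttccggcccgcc
Herpud1: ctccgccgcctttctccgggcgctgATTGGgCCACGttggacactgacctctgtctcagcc

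The ERSE matches began 65 bases before the start site in Hspa5, 98 in Pdia6, 145 in Canx and 162 in Calr, and 212 and 107 in Hsp90b1. The ERSE-II match of Herpud1 began 52 bases before the start. TGACGTG, the core of the unfolded protein response element bound by XBP1 and ATF6, stood in Hspa5 only among the members, 157 bases before the start, and in 2.01% of all windows. TGATGNAA, the letters of the C/EBP-ATF element through which ATF4 acts, stood on the other strand of Herpud1, 112 bases before the start, and in 3.97% of all windows. CCAAT, which is part of ERSE and, on the reverse strand, of ERSE-II, occurred in 9 members, all but Xbp1, and in 37.4% of all windows. Pdia3, Pdia4, Xbp1 and Ddit3 held neither ERSE nor ERSE-II in these windows, which says only that these letters are not there. The Xbp1 and Herpud1 entries of the deposited tables start 326 and 71 bases downstream of the RefSeq start, that of Pdia6 differs by 6, and the other 7 start at the same base.

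**Figure D1:**
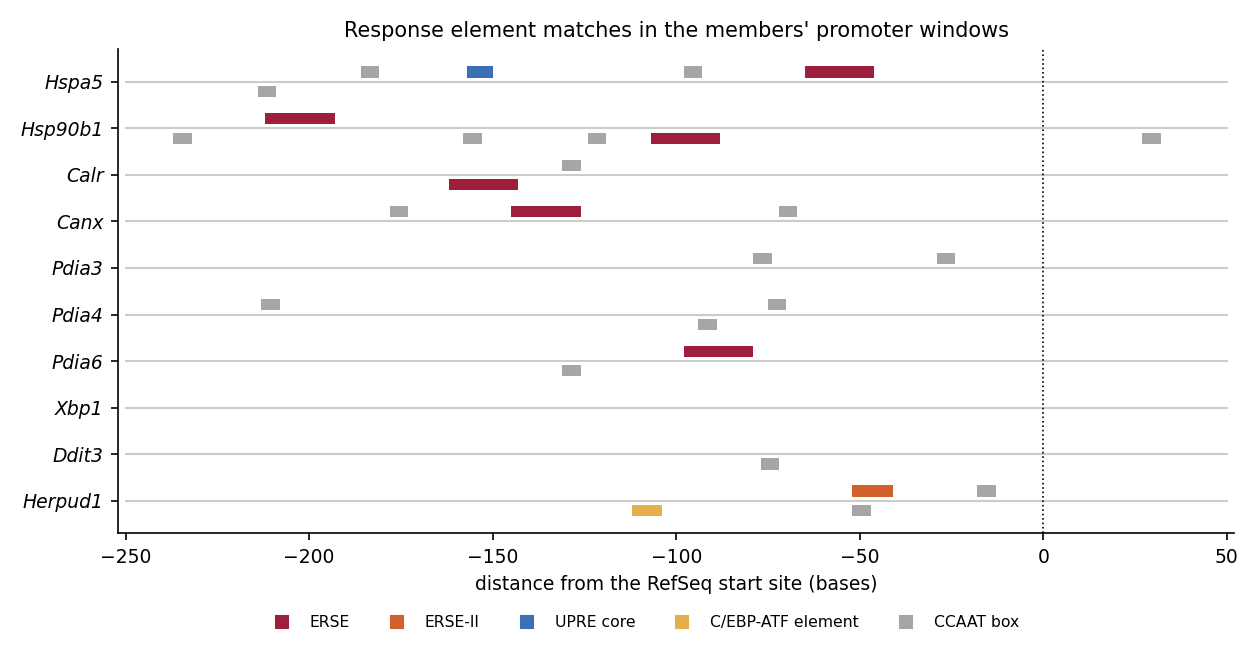
Positions of response element matches in the promoter windows of the 10 members, in bases from the RefSeq start site (dotted line); boxes above each line lie on the gene's strand and boxes below on the other. ERSE boxes stand in 5 members and the ERSE-II box in Herpud1; a CCAAT inside an ERSE match is not drawn separately, while the one inside the ERSE-II of Herpud1 is.

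The transcripts spanned a wide range of levels. By mean FPKM over the 4 libraries, Xbp1 stood highest at 349, followed by Calr at 347, Hsp90b1 at 335, Pdia3 at 242, Hspa5 at 227, Canx at 119, Pdia6 at 118, Pdia4 at 80.9, Ddit3 at 23.2 and Herpud1 at 22.6. Neighbours in this order overlapped over the libraries except at 3 steps: Hspa5 lay above Canx in every library value, Pdia6 narrowly above Pdia4 (lowest 88.4 against highest 88.3), and Pdia4 above Ddit3. The highest library exceeded the lowest by 1.24-fold for Canx and Pdia4 and by 2.39-fold for Ddit3, the ends of the range. Estimated fragments behind a value ran from about 180 for Ddit3, where counting error alone is 7.45%, to about 17970.

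No member passed limma's test of the difference between the populations on log2(FPKM + 1) with Benjamini-Hochberg adjustment over all 10496 genes: 0 of 10 were called, where 0.0572% of all genes were. At an unadjusted limma p under 0.05 the count was also 0 of 10, against 8.13% of all genes. The fitted difference, CCR7loCD137hi minus CCR7hiCD137lo, was above 0 for 9 of 10 members, against 47.9% of all genes, with a median of 0.24 against −0.01. Without CCR7loCD137hi library 1 it was above 0 for 5 of 10, with a median of 0.03. Hsp90b1 and Herpud1 were the 2 of 10 members with both CCR7loCD137hi libraries above both CCR7hiCD137lo libraries, a pattern in 16.6% of all genes, and 0 of 10 had the opposite pattern, seen in 21.5%.

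**Figure D2:**
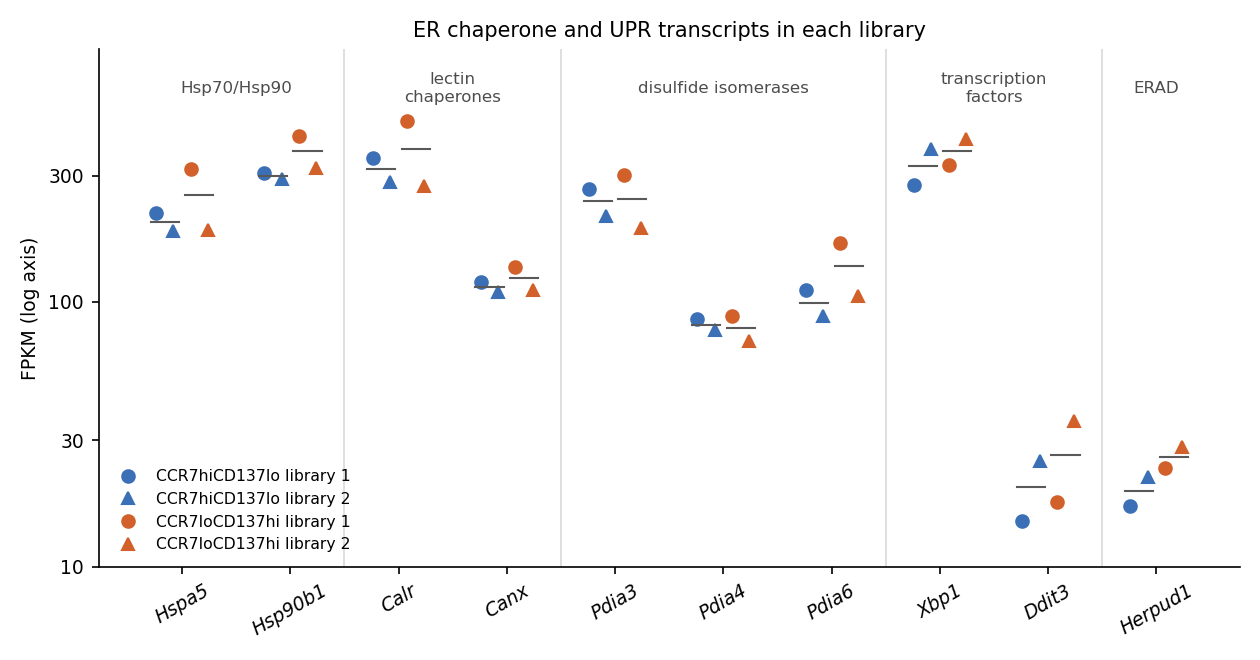
FPKM of the 10 members (log axis), grouped by role; blue marks CCR7hiCD137lo, orange CCR7loCD137hi, circles library 1, triangles library 2, and grey bars the mean of each population. The 7 chaperones and isomerases have the circle above the triangle in both populations, and Xbp1, Ddit3 and Herpud1 have the triangle above.

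Hspa5 (BiP) is the ER Hsp70, which binds unfolded chains and holds the 3 sensors inactive. It stood at 217 and 185 FPKM in CCR7hiCD137lo libraries 1 and 2 and at 319 and 187 in CCR7loCD137hi libraries 1 and 2. Library 1 of CCR7loCD137hi was high and the other 3 lay close together, so the populations overlapped. The log2 difference was 0.28 (SE 0.29, 95% confidence interval −0.48 to 1.04, limma adjusted p = 0.842).

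Hsp90b1 (GRP94) is the ER Hsp90, needed for the folding of integrins and Toll-like receptors. Its levels were 307 and 291 FPKM in CCR7hiCD137lo and 422 and 321 in CCR7loCD137hi. Here the populations did not overlap, although the lower CCR7loCD137hi library was close to the higher CCR7hiCD137lo library. The difference was 0.30 on the log2 scale (SE 0.17, interval −0.15 to 0.75, limma adjusted p = 0.730). On the opposite strand, 10.3% of its exon bases are shared with 1810014B01Rik, listed at 0.947 to 3.94 FPKM, and whether the counting used strand is not given in the sources used here.

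Calr, calreticulin, is a soluble lectin and calcium store that retains glycoproteins for folding. It measured 350.1 and 284 FPKM in CCR7hiCD137lo and 480.5 and 275 in CCR7loCD137hi, so the CCR7loCD137hi population held both the highest and the lowest library. Its log2 difference of 0.20 had an SE of 0.30 (interval −0.60 to 1.01, limma adjusted p = 0.892). Canx, calnexin, is the membrane-bound lectin of the same cycle, and was the steadier of the pair. Canx had 119 and 109 FPKM in CCR7hiCD137lo against 135 and 111 in CCR7loCD137hi, with a log2 difference of 0.11 (SE 0.15, interval −0.29 to 0.50, limma adjusted p = 0.884). Its populations overlapped.

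Pdia3 (ERp57) is the disulfide isomerase that works with both lectins and in loading of MHC class I. Its 267 and 212 FPKM in CCR7hiCD137lo and 300.5 and 189.7 in CCR7loCD137hi again put the highest and the lowest library in 1 population. The log2 difference was 0.004 (SE 0.27, interval −0.70 to 0.71, limma adjusted p = 0.999), an interval that leaves room for a difference of either sign. Pdia4 (ERp72) is an isomerase with more thioredoxin-like domains than Pdia3 and Pdia6. It had 86.0 and 78.0 FPKM in CCR7hiCD137lo against 88.3 and 71.2 in CCR7loCD137hi, and was the member with a fitted difference below 0, at −0.05 (SE 0.16, interval −0.46 to 0.37, limma adjusted p = 0.959). Pdia6 (P5) is an isomerase that associates with Hspa5. It measured 110.4 and 88.4 FPKM in CCR7hiCD137lo and 168 and 105 in CCR7loCD137hi, which overlapped. Its log2 difference was 0.42 (SE 0.27, interval −0.28 to 1.13, limma adjusted p = 0.756), and 0.0933 without CCR7loCD137hi library 1.

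Xbp1 encodes the transcription factor whose active form needs IRE1 splicing; gene-level FPKM does not separate the spliced from the unspliced mRNA. In CCR7hiCD137lo it had 276 and 378 FPKM, and in CCR7loCD137hi 329 and 412. In contrast to the chaperones, library 2 was the higher in each population, and the populations overlapped. The log2 difference was 0.19 (SE 0.21, interval −0.37 to 0.75, limma adjusted p = 0.858).

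Ddit3 (CHOP) is the factor induced through PERK and ATF4 that promotes death under lasting stress. Its levels were 14.8 and 25.1 FPKM in CCR7hiCD137lo and 17.5 and 35.3 in CCR7loCD137hi, so library 2 was the higher in each population and the populations overlapped. It had the widest interval, −0.76 to 1.47, around a log2 difference of 0.35 (SE 0.42, limma adjusted p = 0.865). Mars, on the opposite strand at 35.7 to 40.1 FPKM, shares 3.97% of the Ddit3 exon bases. Whether reads of Mars enter the Ddit3 values was not tested.

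Herpud1 is a membrane protein that brings substrates to the ER degradation complex and is induced by both ATF6 and ATF4. It measured 16.9 and 21.8 FPKM in CCR7hiCD137lo and 23.5 and 28.3 in CCR7loCD137hi, which did not overlap. The log2 difference was 0.41 (SE 0.19, interval −0.09 to 0.90), with a limma adjusted p of 0.683, the lowest among the members. Like Xbp1 and Ddit3, it was higher in library 2 of each population.

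The shift from library 1 to library 2 was averaged over both populations with its sign. In size it exceeded the difference between populations for 8 of 10 members, against 56.3% of all genes. Opposite shifts cancel in this average. Every member shifted the same way in both populations, so such cancelling can lower only the share of all genes. All 7 chaperones and isomerases were lower in library 2 than in library 1 in both populations, a pattern in 29.4% of all genes, with a median distance of −0.49 on the log2 scale. Calr had −0.55, Hspa5 and Pdia3 −0.50, Pdia6 −0.49, Hsp90b1 −0.24, Pdia4 −0.22 and Canx −0.20 as the mean over both populations. Xbp1 with 0.39, Ddit3 with 0.85 and Herpud1 with 0.30 were higher in library 2 in both populations, as were 44.7% of all genes. Levels of the members thus followed the library number in 2 opposite directions.

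The difference between populations was also unequal between the numbers. Taken between the libraries numbered 1 it was larger than between those numbered 2 for 9 of 10 members, Ddit3 being the exception, against 59.4% of all genes. For the 7 chaperones and isomerases the median was 0.46 between the libraries numbered 1 and 0.01 between those numbered 2. Hspa5 had 0.55 and 0.01, Calr 0.46 and −0.05, and Pdia6 0.60 and 0.25. Herpud1 had 0.45 and 0.36. As a median absolute log2 distance over the 10 members, the CCR7loCD137hi libraries lay 0.53 apart and the CCR7hiCD137lo libraries 0.31, while the populations lay 0.35 apart within number 1 and 0.13 within number 2.

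**Figure D3:**
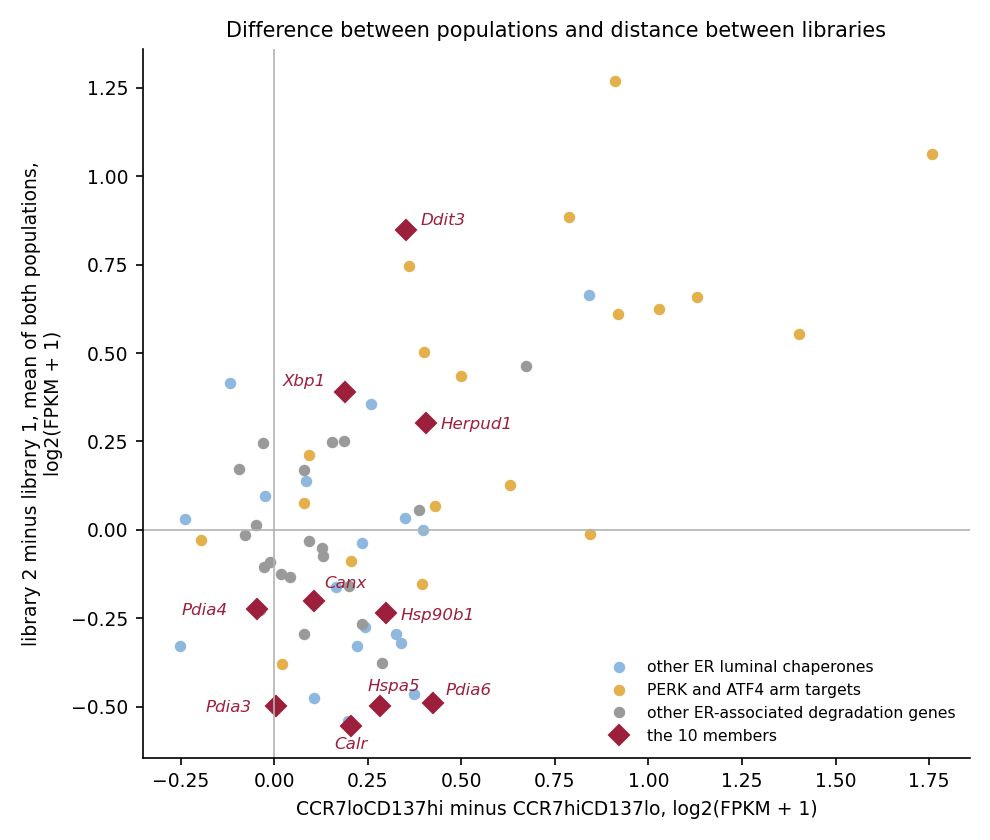
Each point is a gene: the x axis is the fitted difference between populations and the y axis the mean distance from library 1 to library 2 within a population, both in log2(FPKM + 1); red diamonds are the 10 members and the colours other ER luminal chaperones, PERK and ATF4 arm targets, and degradation genes. The 7 chaperones and isomerases lie below 0 on the y axis, and Xbp1, Ddit3 and Herpud1 above.

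CCR7loCD137hi library 1, highest for all 7 chaperones and isomerases, also had the highest sums for the B and plasma, myeloid and dendritic, and CD8 T and NK cell marker lists. Summed FPKM of 9 measured B and plasma cell markers was 0.355 and 0.739 in the CCR7hiCD137lo libraries. It was 5.40 and 0.887 in CCR7loCD137hi libraries 1 and 2. Igj, which marks plasma cells, stood at 0 in 3 libraries, CCR7loCD137hi library 1 included. Mzb1, of the same list, stood at 0, 0.109, 0.977 and 0 in the same order, highest in CCR7loCD137hi library 1. Sdc1, also of that list, was above 0 in all 4 libraries and highest in CCR7hiCD137lo library 2. The 12 myeloid and dendritic cell markers, mostly Cst3, summed to 47.8, 45.6, 80.1 and 70.7 in the same order, with Lyz1 and Csf1r at 0 in all 4. Cst3 itself had 45.5, 44.6, 63.4 and 62.6. Fcer1g, Tyrobp, Itgax and Cd14 were also highest in CCR7loCD137hi library 1. Cd68, Itgam, Emr1 and Lyz2 were highest in CCR7loCD137hi library 2, and Mpeg1 in CCR7hiCD137lo library 1. The 8 CD8 T and NK cell markers, mostly Eomes and Klrk1, summed to 17.0, 33.2, 66.3 and 54.7, with Cd8a at 0, 0.0265, 3.68 and 0.218. Eomes had 9.42, 17.2, 26.5 and 28.5, highest in CCR7loCD137hi library 2, and Klrk1 had 4.29, 9.38, 16.5 and 15.5. The 11 T cell markers, Cd4 included, summed to 2157, 2200.2, 2030.1 and 2324. Cd4 alone stood at 124.5, 181.9, 95.6 and 175.7, lowest in CCR7loCD137hi library 1. Library 2 was the higher in both populations for 6 of the 11, Cd4 included (44.7% of all genes), and the lower for 1 (29.4%). Ccr7 and Tnfrsf9, which encodes CD137, followed the sort. Ccr7 had 93.4 and 118.4 in CCR7hiCD137lo against 39.6 and 38.2 in CCR7loCD137hi, and Tnfrsf9 0.961 and 6.25 against 158.2 and 183.8. In bulk RNA, fewer cells of a type and less RNA per cell cannot be told apart. The cytosolic stress genes Hspa1a and Hspa1b, named after their values were seen, also followed the library number, with Hspa1a at 58.3 and 0.551 FPKM in CCR7hiCD137lo and 135 and 0.649 in CCR7loCD137hi. Whether the marker RNA, Eomes and Klrk1 included, came from other cells or from the sorted T cells was not tested. Any part of other cells, or of what set Hspa1a, in the members' levels was not tested either.

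Beyond the 10 members, 8 lists of other genes of the pathway and its relatives were described. The limma adjusted calls numbered 0 in each. Over all genes, 47.9% were fitted above 0, 4.64% had an unadjusted limma p under 0.05 in the direction of CCR7loCD137hi and 3.49% in the other, and 16.6% had non-overlapping, higher CCR7loCD137hi libraries. The 18 other ER luminal chaperones and cochaperones had a median difference of 0.23, with 14 fitted above 0, 1 at an unadjusted p under 0.05 in the direction of CCR7loCD137hi and 6 with non-overlapping, higher CCR7loCD137hi libraries. Without CCR7loCD137hi library 1 the median was 0.06, and without library 2 of that population 0.37. The proline isomerase Ppib stood at 266 and 248 against 312 and 267 FPKM, with a difference of 0.17 (limma adjusted p = 0.798). Sdf2l1, a Hspa5 partner, had 73.0 and 69.2 against 106.9 and 74.6, a difference of 0.33, and Sdf2 21.5 and 22.3 against 28.0 and 28.3, a difference of 0.35 and the 1 gene past the unadjusted threshold (limma adjusted p = 0.597). Hspa13 stood at 3.82 and 4.65 against 6.45 and 5.36, a difference of 0.40.

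Oxidative folding genes had the same median, 0.23, over 14 tested of 15, with 12 above 0 (47.9% of all genes) and 4 at an unadjusted p under 0.05, all higher in CCR7loCD137hi (4.64%). P4hb, the classical disulfide isomerase, measured 196 and 220.0 FPKM in CCR7hiCD137lo against 329 and 371 in CCR7loCD137hi, a difference of 0.75 (SE 0.13, limma adjusted p = 0.346). Prdx4, the ER peroxidase that uses hydrogen peroxide to make disulfides, had 41.9 and 47.7 against 80.8 and 102.8, a difference of 1.01 (SE 0.17, limma adjusted p = 0.344). Erp29 had 100.5 and 97.9 against 136 and 162, a difference of 0.58 (limma adjusted p = 0.462). In all 3 both CCR7loCD137hi libraries were above both CCR7hiCD137lo libraries, and library 2 of CCR7loCD137hi was the highest, unlike Pdia3, Pdia4 and Pdia6. Without CCR7loCD137hi library 1 the list's median was 0.26.

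The 15 tested genes of the calnexin cycle and N-glycan processing lay near all genes, with a median of 0.08 and 9 above 0, and −0.11 and 0.21 without CCR7loCD137hi libraries 1 and 2 in turn. Rpn2 and Dad1, subunits of the oligosaccharyltransferase, had differences of −0.01 and 0.08. Of its catalytic subunits, Stt3b had −0.45 (limma adjusted p = 0.735) and Stt3a 0.05 (limma adjusted p = 0.958). Mcfd2, a cargo receptor subunit, had 0.41 (limma adjusted p = 0.687). ER-associated degradation genes, 21 tested, had a median of 0.08, which was 0.0462 without CCR7loCD137hi library 1 and 0.0289 when scaled without short RNA genes. Of them 14 were above 0 (47.9% of all genes) and 1 passed the unadjusted threshold, a share near the 4.64% of all genes. It was Edem2, which acts on glycoproteins bound for degradation, at 22.1 and 32.9 against 38.2 and 49.7 FPKM (difference 0.67, limma adjusted p = 0.613). Vcp, the ATPase that extracts substrates, had 0.08, and Aup1 0.20. For the translocon and signal peptide processing, 19 of 23 were above 0 (47.9% of all genes). The unadjusted threshold was passed by 2, both higher in CCR7loCD137hi (4.64%). The median was 0.14, and 0.02 and 0.25 without CCR7loCD137hi libraries 1 and 2 in turn. The 2 were Sec61b, at 178 and 165 against 242 and 207 FPKM, with 0.39 (limma adjusted p = 0.602), and Sec61g, with 0.41 (limma adjusted p = 0.546); both are small subunits of the channel.

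Among 11 sensors and transcription factors, 5 were above 0 and the median was −0.04, or 0.006 without CCR7loCD137hi library 2. Eif2ak3, which encodes PERK, stood at 4.89 and 6.23 against 8.0 and 10.8 FPKM, a difference of 0.66 (limma adjusted p = 0.572), and Atf6 at 3.65 and 4.46 against 7.42 and 5.6, a difference of 0.57 (limma adjusted p = 0.613). Nfya, a subunit of NF-Y, had −0.38 (limma adjusted p = 0.613) and Eif2s1, the PERK substrate, 0.03. Past the unadjusted threshold were Eif2ak3 and Atf6, higher in CCR7loCD137hi (4.64% of all genes), and Nfya, lower there (3.49%).

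The targets of PERK and ATF4 had a median of 0.50, which ran from 0.34 to 0.71 when a library was left out; without CCR7loCD137hi library 2 it was 0.35. Of 19 tested, 18 were above 0, 12 had non-overlapping, higher CCR7loCD137hi libraries (16.6% of all genes) and 8 had an unadjusted p under 0.05 in that direction (4.64%). The median was 0.58 between the libraries numbered 1 and 0.56 between those numbered 2, where the member chaperones had 0.46 and 0.01. Atf4 measured 112 and 121 against 171 and 189.8 FPKM, a difference of 0.63 (SE 0.12, limma adjusted p = 0.374). Asns, the asparagine synthetase, had 11.1 and 14.3 against 20.2 and 40.6, a difference of 1.13 (limma adjusted p = 0.572), and the pseudokinase Trib3 1.03 (limma adjusted p = 0.613). Psat1, of serine synthesis, had 0.21. Library 2 was higher than library 1 in both populations for 13 of the 19 (44.7% of all genes), as for Ddit3 and Herpud1. Whether the list differs from the chaperones was not tested.

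**Figure D4:**
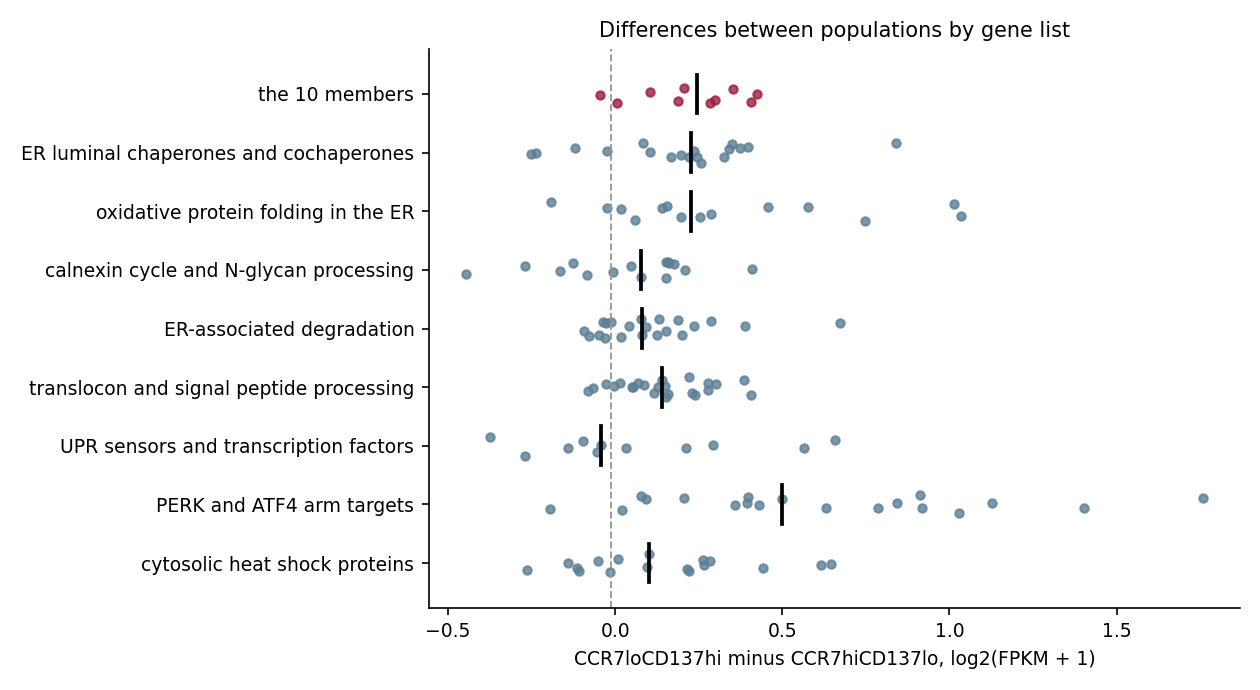
Fitted differences between populations, CCR7loCD137hi minus CCR7hiCD137lo in log2(FPKM + 1), for the 10 members (red) and 8 lists of other genes (blue); each point is a tested gene, with vertical scatter for legibility, the black bar is the list's median and the dashed line the median of all genes, −0.01. The PERK and ATF4 arm targets have the median of 0.50 and the members 0.24.

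Of the genes with an ERSE in the promoter window, 14 were tested, 5 of them members. The other 9, among them Creld2, Dnajc3, Syvn1 and Ero1lb, had a median difference between populations of 0.11, with 5 of 9 above 0 (47.9% of all genes), and 5 of 9 had a mean distance from library 1 to library 2 below 0. Creld2, an ER chaperone-like protein, stood at 27.9 and 22.7 against 41.4 and 26.1 FPKM, whereas Dnajc3, a cochaperone of Hspa5, had 21.6 and 17.2 against 18.2 and 14.1. The 5 members without ERSE had differences of −0.05 for Pdia4, 0.004 for Pdia3, 0.19 for Xbp1, 0.35 for Ddit3 and 0.41 for Herpud1, and the 5 with ERSE lay between 0.11 for Canx and 0.42 for Pdia6. No test of the motif was made.

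Genes near the members' mean profile were sought over the 4 libraries, among others with a mean of at least 20 FPKM. The measure was the Euclidean distance of the centred log2(FPKM + 1). That mean profile was −0.11 and −0.11 in CCR7hiCD137lo libraries 1 and 2, and 0.23 and −0.005 in CCR7loCD137hi libraries 1 and 2. It averages 7 members lower in library 2 of both populations with 3 higher there, so it shows neither of these patterns. Erp44, an ER thioredoxin-like retention factor, was nearest at 0.0361, at 22.8, 23.1, 30.1 and 25.2 FPKM, followed by Riok1, Morf4l2, Mrpl53 and Rwdd1 at 0.0363 to 0.0521. With 4 libraries, such nearness to a mean is a description only, and it does not mean likeness to single members.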

How the data were processed

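The authors made gene-level FPKM values and deposited 1 table for each library; per the file headers they have the columns of a Cufflinks gene table. TRIzol extraction and a TruSeq stranded mRNA kit were used, per the labels' protocols. The build was mm10 and the tools were Cufflinks 2.0.2, TopHat 1.3.2 and Bowtie 0.12.8, per the submitters' processing notes. As to their roles, the annotation, any scaling and the use of strand, these were not given in the sources used here. Whether reads from opposite strands of overlapping genes were separated is therefore not known.

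Each table held 23746 entries for 23284 symbols, and of 240 symbols with several entries the highest was used. Depth is not stated. Ratios of values under 0.3 FPKM to those of CCR7hiCD137lo library 1 were ratios of whole reads, within 0.002 in natural log, for 70.2% to 71.8%, against 1.65% to 1.92% at shifted depths. With an assumed fragment of 200 nt this gave about 20700000 and 13100000 fragments for CCR7hiCD137lo libraries 1 and 2 and 11700000 and 6300000 for CCR7loCD137hi; a gene of 1 kb with 3 fragments stands at 0.181, 0.287, 0.321 and 0.591 FPKM, which covers counting error only.

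The limma 3.58.1 package in R 4.3.3 was fitted to log2(FPKM + 1) of the 10496 genes whose mean FPKM reached 1. The test was two-sided with a variance trend, and p-values were adjusted by Benjamini-Hochberg with a threshold of 0.05; residual degrees of freedom were 2. Fold differences on this scale are understated for low genes. The smallest p of an exact permutation test, 2 against 2, is 0.333. Python 3.11.15 with pandas 2.3.3, numpy 2.4.6 and matplotlib 3.10.9 made tables, motif searches and plots.

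The members and lists were chosen with earlier results of these data known. The rule named the 10 members, Ccr7 and Tnfrsf9 as a check of the sort, and the 5 genes nearest the members' mean profile. In each list it picked the 2 with the highest mean. Among those of at least 5 FPKM whose groups did not overlap, it also picked the 2 with the largest absolute difference. Of these picks, Sec11c, Cd79a, Cd79b, Thy1 and Lck are not described here. All other genes named, including single cell type markers, overlapping genes and genes with an ERSE, were chosen after their values were seen. Of 184 list genes, 183 matched a symbol; 1 further cell type marker is not reported here. Alternatives covered the pseudocount, the filter, the scaling, the trend, the replicate number and each library left out.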

Additional observations from a re-analysis of the deposited data

How the results depend on the processing

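The count of members called by limma was 0 in the main fit and in all 13 alternatives, with the lowest member adjusted p between 0.134 and 1 over them; at an unadjusted p under 0.05 it was 0 except without CCR7loCD137hi replicate 2 and with the replicate block (4 members each, against 6.12% and 21.7% of all genes). Over all genes, 6 were called; there were 1 with no filter on low values, 2 with quantile normalization, 2 with no variance trend, and 12 to 30 when a library was left out. Leaving out each library in turn gave a member median of 0.0299 to 0.31 and 5 to 9 members above 0; the lower values came without CCR7loCD137hi replicate 1. The log2 difference then ran from −0.10 to 0.67 for Hspa5, −0.20 to 0.61 for Calr, −0.0335 to 0.24 for Canx, −0.33 to 0.33 for Pdia3, −0.20 to 0.11 for Pdia4, −0.0391 to 0.42 for Xbp1, −0.14 to 0.84 for Ddit3, 0.10 to 0.50 for Hsp90b1, 0.0933 to 0.76 for Pdia6 and 0.23 to 0.58 for Herpud1. Pdia3 was also −0.00377 with quantile normalization and −0.0540 when scaled without short RNA genes. The cause of these shifts was not tested. A lone library is assumed to vary like the other group.

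Same-numbered libraries had a correlation of deviations of 0.214 across 10496 genes and 0.978 across the 10 members, which are not independent, and the labels do not say that a number marks a shared culture. With the replicate block, 42 genes were called over all genes and 0 members. Depth limits Ddit3 and Herpud1 the most, and 2 libraries in each population limit every interval. List medians without a library, and the number of members above 0, were alternatives chosen after seeing the data.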

Other observations

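The cytosolic heat shock proteins, the chaperones of the cytosol and mitochondria, followed the library number as the ER chaperones did. Of 17 tested, 14 were lower in library 2 than in library 1 in both populations (29.4% of all genes), with a median distance of −0.32 on the log2 scale, and their median difference between populations was 0.10 (−0.26 to 0.28 when a library was left out), with 0 called by limma, 0 at an unadjusted p under 0.05 and 11 above 0. Hspa8, the constitutive Hsp70, had 1078 and 850.3 FPKM in CCR7hiCD137lo against 1109 and 771 in CCR7loCD137hi. Hsp90ab1, the constitutive Hsp90, had 926 and 833 against 1152 and 991, a difference of 0.28, and Dnajb1, an Hsp70 cochaperone, 23.3 and 28.1 against 32.2 and 29.6.

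The following genes were chosen after their values were seen. Hspa1b, a near-identical copy of Hspa1a with which it can share reads, stood at 67.9 and 0.578 FPKM in CCR7hiCD137lo libraries 1 and 2 and at 149.0 and 0.706 in CCR7loCD137hi libraries 1 and 2. Hsph1, of the Hsp110 family, had 40.0 and 22.6 against 46.9 and 19.4. Ero1l, the oxidase that feeds disulfides to P4hb, had 48.5 and 101.8 against 84.4 and 249, so library 2 was the higher in each population. Ppp1r15a (GADD34), which reverses the PERK signal, had 19.9 and 21.5 against 39.7 and 36.2, a difference of 0.84 (limma adjusted p = 0.307).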
